A study of Mus musculus with 8 samples.

Results

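The genes described here are 41 genes of skeletal muscle fibres, taken by symbol out of 24462 gene symbols in the deposited tables. They cover the contractile filaments, the Z-disc, calcium handling, energy supply, stretch and turnover proteins, and the muscle atrophy ligases, and for several proteins both the fast and the slow fibre isoform. They were chosen because a single library of MKRN1-null subcutaneous fat carried a large muscle signal, so that their values in fat are a description, and the calls of the fit across all genes of fat, given further on, support nothing about them. The livers were not used in the choice.

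A skeletal muscle fibre shortens when myosin heads on the thick filament pull on actin in the thin filament, and calcium released from the sarcoplasmic reticulum frees the thin filament through troponin and tropomyosin. Fibres are classed by their myosin heavy chain into slow type I and fast types IIa, IIx and IIb. Fast and slow fibres also differ in the genes used for the light chains, the troponins, the calcium pump and the calcium store. Subcutaneous fat of the mouse lies next to thin sheets of skin muscle and to the muscles of the trunk and limb, whereas adipocytes and hepatocytes do not build sarcomeres.

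The samples were liver and subcutaneous fat of male C57BL/6 mice, 24 weeks of age, fed an HFD (high-fat diet) that by the labels began when they were 6 weeks old and ran for 19 weeks. These ages and times do not add up exactly, and the study's methods describe a shorter HFD, so the length of the diet is uncertain. There were 2 WT and 2 MKRN1-null (labelled MKRN1 KO) libraries for each tissue, 8 in all, and no chow-fed group was analysed here. MKRN1 is an E3 ubiquitin ligase, and the null mice lack it in the whole body. They were backcrossed to C57BL/6, and per the study's methods the null and WT mice were littermates from heterozygous crosses. Values are FPKM, fragments per kilobase of transcript scaled to the depth of the library, summed over the transcripts of a gene, so that levels of different genes can be compared.

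Mkrn1 itself was at 16.8 and 19.3 FPKM in WT fat, against 4.58 and 2.90 in MKRN1-null fat. In liver it was at 9.42 and 10.1 in WT, against 2.86 and 2.21 in MKRN1-null. All 4 fat libraries carried the defining adipocyte markers, with Adipoq, the hormone adiponectin, at 1666 FPKM or more, and all 4 livers carried Alb, serum albumin, at 33787 or more. Aligned bases were 9.12 to 9.24 Gb in 3 fat libraries, 5.72 Gb in MKRN1-null fat 2 and 6.05 to 7.46 Gb in the livers. MKRN1-null fat 2 stood apart from the other fat libraries by the muscle genes described below. Most values in fat are therefore given for each library, and many of the counts and medians rest on MKRN1-null fat 2 alone.

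Promoter sequences are shown for 5 of the genes, chosen because the results turn on them. Acta1, Ckm and Myh4 are the skeletal actin, the muscle creatine kinase and the type IIb myosin, Pvalb has a pair of starts that behaved differently, and Myh7 is the slow myosin that was near 0. Each run holds the 250 bases before the start of transcription, read 5′ to 3′ on the strand of the gene, from RefSeq on GRCm38.p6, whose coordinates are those of the mm10 build of the files. Capitals mark matches to the TATA box TATAAA (gene strand), the E-box CAGCTG, the MCAT element CATTCC (both strands), and the MEF2 and CArG motifs (both strands). The windows are chr8:123894776-123895025 (minus strand) for Acta1, chr7:19410844-19411093 (plus) for Ckm, chr11:67237562-67237811 (plus) for Myh4, chr15:78206401-78206650 and chr15:78204238-78204487 (minus) for Pvalb, and chr14:54994550-54994799 (minus) for Myh7.
Acta1: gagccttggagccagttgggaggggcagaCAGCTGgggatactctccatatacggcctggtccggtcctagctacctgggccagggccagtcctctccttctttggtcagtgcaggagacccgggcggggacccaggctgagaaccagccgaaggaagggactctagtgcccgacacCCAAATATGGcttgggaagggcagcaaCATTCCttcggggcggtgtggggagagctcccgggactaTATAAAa
Ckm: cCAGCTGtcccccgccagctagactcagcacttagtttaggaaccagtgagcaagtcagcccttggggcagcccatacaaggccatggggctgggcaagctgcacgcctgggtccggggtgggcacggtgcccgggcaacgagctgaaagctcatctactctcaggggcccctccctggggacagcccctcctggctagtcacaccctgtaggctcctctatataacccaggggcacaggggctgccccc
Myh4: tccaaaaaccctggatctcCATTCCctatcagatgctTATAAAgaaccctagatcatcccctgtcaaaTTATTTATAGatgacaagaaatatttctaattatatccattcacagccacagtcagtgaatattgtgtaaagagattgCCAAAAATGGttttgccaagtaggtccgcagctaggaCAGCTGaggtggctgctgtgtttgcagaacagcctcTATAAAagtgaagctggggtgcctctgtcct
Pvalb, upstream start: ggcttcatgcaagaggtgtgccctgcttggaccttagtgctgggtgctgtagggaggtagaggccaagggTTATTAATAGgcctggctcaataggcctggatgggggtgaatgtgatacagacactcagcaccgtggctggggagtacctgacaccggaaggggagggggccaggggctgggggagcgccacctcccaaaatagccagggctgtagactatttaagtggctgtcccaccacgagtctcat
Pvalb, downstream start: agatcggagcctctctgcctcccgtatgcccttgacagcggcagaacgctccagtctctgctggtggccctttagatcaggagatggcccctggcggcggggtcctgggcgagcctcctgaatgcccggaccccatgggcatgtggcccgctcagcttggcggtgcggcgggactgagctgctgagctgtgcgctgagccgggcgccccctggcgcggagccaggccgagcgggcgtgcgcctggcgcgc
Myh7: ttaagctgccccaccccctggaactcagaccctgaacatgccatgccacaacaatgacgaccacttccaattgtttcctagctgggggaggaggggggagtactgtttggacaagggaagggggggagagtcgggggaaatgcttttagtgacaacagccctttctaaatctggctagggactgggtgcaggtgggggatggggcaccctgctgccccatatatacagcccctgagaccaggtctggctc

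RefSeq promoters were matched for 29 of the 41 genes. A gene was counted when any of its starts held the motif, for these genes and for all 27025 genes of the table, whose 32851 promoters are of the same length. An E-box CAGCTG stood in the upstream bases of 14 of the 29, against 14.7% of all genes. A MEF2 match was found for 7 (3.42% of all genes), a CArG match for 3, Acta1, Ldb3 and Myh4 (1.62%), an MCAT match for 9 (14.4%) and a TATA box for 5 (8.94%). Of the genes printed, Myh4 held all of the motifs, with its nearest TATA box beginning 31 bases and its CArG match 104 bases before the start. Acta1 held a TATA box match beginning 7 bases and a CArG match 73 bases before the annotated start, an MCAT element and an E-box. The upstream Pvalb start held a MEF2 match, and the downstream Pvalb start and the Myh7 start printed held none of these letters, while another annotated start of Myh7 held the MCAT match counted above. The genes with an E-box included Tnni1, a slow gene listed at 0 in MKRN1-null fat 2. A match is a description of letters in a window and not of a bound site.

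In fat, MKRN1-null fat 2 stood above the other 3 libraries for 36 of the 41 genes, where it did so for 20.2% of all 18782 genes above 0 in any fat library. Each of the 36 was at least 10 times the highest of them. Of all genes, 3.58% were at least 10 times higher there. A factor of at least 100 was reached by 32 of the genes, against 2.41% of all genes. The 41 genes made up 24.1% of the summed FPKM and 20.6% of the aligned bases of this library, against 0.0268%, 0.0902% and 0.0221% of summed FPKM in WT fat 1, WT fat 2 and MKRN1-null fat 1. The 5 genes outside this pattern were Myh7, Tnnt1, Tnni1, Tnnc1 and Casq2, each the slow or cardiac form of its protein. These shares and factors are the values by which the genes were chosen. In whole tissue, more muscle cells and more muscle RNA per cell cannot be told apart.

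**Figure D1:**
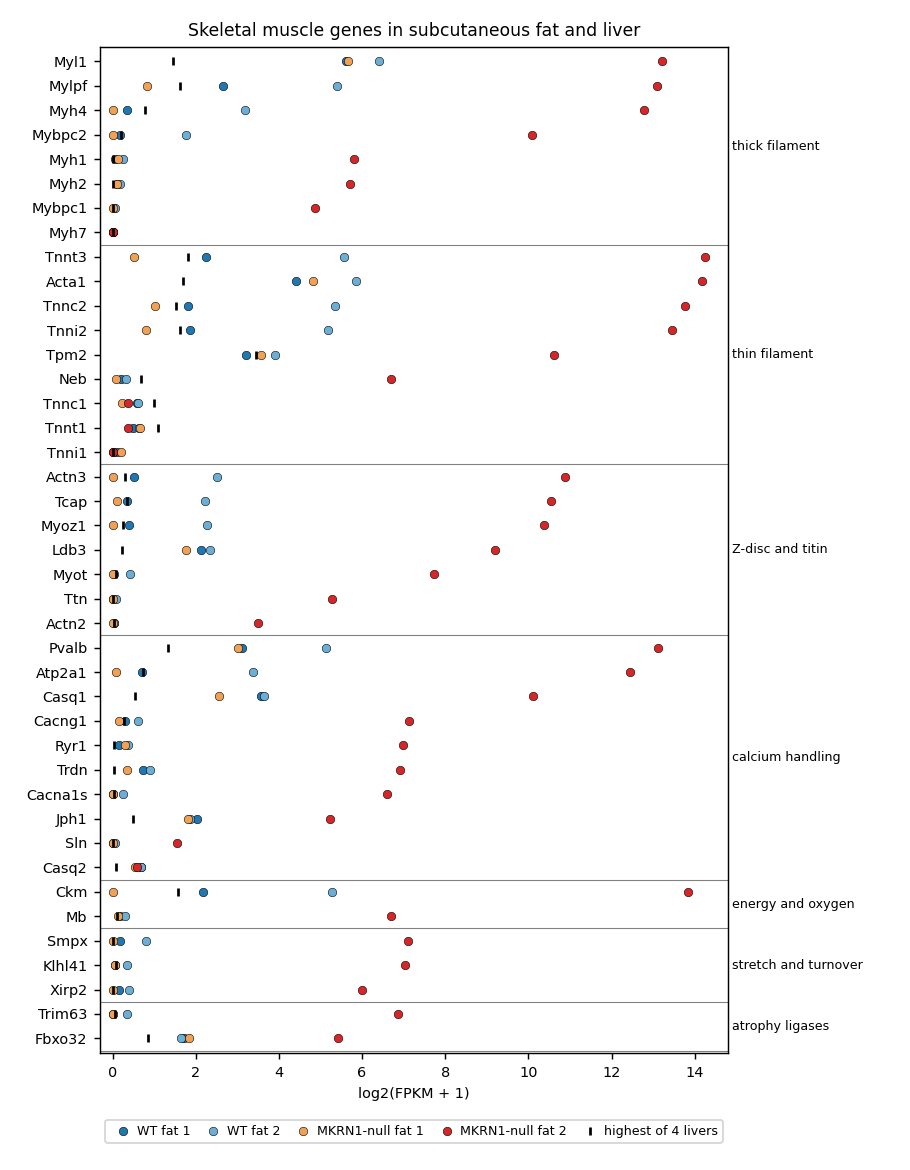
FPKM of the 41 muscle genes on a log2(FPKM + 1) scale, 1 row per gene and grouped by role. Circles are the 4 fat libraries and the black tick is the highest of the 4 livers. Red circles, MKRN1-null fat 2, lie far to the right for 36 genes and with the others for Myh7, Tnnt1, Tnni1, Tnnc1 and Casq2.

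Thick filament genes made up 26564 FPKM in MKRN1-null fat 2, against 50.7 to 135 in the other fat libraries. Myh4, the type IIb heavy chain found in the fastest fibres of the mouse, was at 0.267 and 8.04 FPKM in WT fat, was listed at 0 in MKRN1-null fat 1 and reached 6999 in MKRN1-null fat 2. The heavy chains of type IIx and IIa fibres were far lower in the same library. Myh1 (IIx) was at 0.0459, 0.188, 0.102 and 54.9 FPKM in WT fat 1, WT fat 2, MKRN1-null fat 1 and MKRN1-null fat 2. Myh2 (IIa) was at 0.0712, 0.135, 0.0757 and 51.1 in the same order, which is used for every list of 4 fat values below. Myh7, the heavy chain of type I fibres and of the heart, was at 0, 0.00361, 0 and 0.00137, and its value in WT fat 2 rested on 202 aligned bases.

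The light chains and binding proteins of the thick filament followed the heavy chains. Myl1, the fast essential light chain, was at 48.2, 83.2, 49.7 and 9556 FPKM, the highest of the 41 genes in each of the first 3 fat libraries. Mylpf, the fast regulatory light chain, was at 5.34, 41.01, 0.778 and 8795. Mybpc2, the fast form of myosin binding protein C that cross-links the filament, was at 0.137, 2.38, 0.00911 and 1080. Its slow form Mybpc1 was the exception among the 6 genes counted here as slow, at 0.0290, 0.0361, 0.0112 and 28.2 FPKM, 783 times the highest other fat library.

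Thin filament genes held the highest single levels. Tnnt3, the fast troponin T that ties the troponin complex to tropomyosin, was at 3.78, 46.4, 0.435 and 19365 FPKM. Acta1, the actin of adult skeletal muscle, was at 20.3, 56.6, 27.3 and 18463. The libraries did not order alike for these genes, because Acta1 in MKRN1-null fat 1 lay between the WT libraries while Tnnt3 lay below both. Tnnc2, the fast troponin C that binds calcium, was at 2.51, 39.5, 1.03 and 13969. Tnni2, the fast inhibitory troponin, was at 2.64, 35.3, 0.750 and 11252.

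The slow troponins did not take part. Tnnt1 was at 0.409, 0.562, 0.590 and 0.291 FPKM, so that MKRN1-null fat 2 was the lowest fat library. Tnnc1, shared by slow fibres and heart, was at 0.502, 0.538, 0.168 and 0.303, with both null libraries below both WT libraries. Tnni1, the slow inhibitory troponin, was at 0.0704 and 0 in WT fat and at 0.143 and 0 in MKRN1-null fat. Tpm2, the beta tropomyosin that many tissues make in another splice form, was at 8.31, 13.9, 10.8 and 1560. Neb, the giant ruler of thin filament length, was at 0.147, 0.252, 0.0577 and 102.

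All 7 Z-disc and titin genes were highest in MKRN1-null fat 2, at 144 to 686 times the next fat library. Actn3, the alpha-actinin of fast fibres that anchors actin at the Z-disc, was at 0.426, 4.72, 0 and 1883 FPKM. Actn2, the alpha-actinin of all skeletal fibres and of the heart, was at 0.0183, 0.0156, 0 and 10.3, far below its fast relative. Tcap, which caps titin at the Z-disc, was at 0.266, 3.64, 0.0700 and 1493. Myoz1, the calcineurin-binding myozenin of fast fibres, was at 0.317, 3.84, 0 and 1336, and Myot, a filamin-binding Z-disc protein, was at 0.0199, 0.346, 0 and 211. These genes were listed at 0 in MKRN1-null fat 1, except Tcap. Ldb3, a PDZ and LIM domain protein of the Z-disc, was at 3.36, 4.10, 2.40 and 589. Ttn, the molecular spring of the sarcomere, was at 0.00162, 0.0553, 0.000526 and 37.9.

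Of the 10 calcium handling genes, 9 were highest in MKRN1-null fat 2. Pvalb, the buffer that takes up calcium in fast fibres, was at 7.72, 34.2, 7.06 and 8823 FPKM. Atp2a1, the fast calcium pump of the sarcoplasmic reticulum, was at 0.643, 9.36, 0.0639 and 5527. Casq1, which stores calcium in the reticulum of fast fibres, was at 10.8, 11.4, 4.86 and 1104, whereas Casq2, the slow and cardiac form, was at 0.596, 0.600, 0.458 and 0.497. Casq2 was thus lower in both null libraries than in both WT libraries, by a small margin.

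The channels and the junction between the surface membrane and the reticulum were present at lower levels. Ryr1, the release channel, was at 0.114, 0.303, 0.220 and 126 FPKM. Cacna1s, the voltage sensor that opens it, was at 0.0105, 0.182, 0 and 95.8, and Cacng1, the gamma subunit of that sensor, was at 0.233, 0.535, 0.104 and 139. Trdn, which holds the store next to the channel, was at 0.648, 0.852, 0.276 and 120. Jph1, which bridges the membranes of the junction, was at 3.08, 2.65, 2.52 and 36.4, the smallest factor over the next library, 11.8, among the 36 genes. Sln, a small inhibitor of the calcium pump that is plentiful in slow and atrial muscle of the mouse, was at 0, 0.0421, 0 and 1.93, the lowest level among the 36.

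Ckm, the creatine kinase that refills ATP in the fibre, was at 3.53, 37.6, 0 and 14652 FPKM. Mb, the oxygen store myoglobin that is rich in oxidative fibres, was at 0.138, 0.234, 0.0954 and 103, close to Neb and far below Ckm. Smpx, a small protein linked to stretch, was at 0.125, 0.757, 0 and 137. Xirp2, an actin-binding protein of the Z-disc and intercalated disc, was at 0.112, 0.306, 0.00926 and 62.7. Klhl41, which stabilises nebulin, was at 0.0342, 0.272, 0.0484 and 130.

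Both ubiquitin ligases that are known to rise in wasting muscle were highest in MKRN1-null fat 2. Trim63 (MuRF1) was listed at 0 in WT fat 1 and MKRN1-null fat 1 and was at 0.265 in WT fat 2 and 115 FPKM in MKRN1-null fat 2. Fbxo32 (atrogin-1) was at 2.27, 2.13, 2.59 and 41.6, the only gene of the 41 with both null libraries above both WT libraries, where 9.60% of all genes above 0 in any fat library had that order. In 2 genes, Tnnc1 and Casq2, both null libraries lay below both WT libraries, against 31.8% of all genes. Of 21 other genes of atrophy and FoxO signalling, 3 were highest and 11 lowest in MKRN1-null fat 2, and 0 reached 10 times the next library. Over the tested genes of fat, 2173 of 12164 (17.9%) were highest and 8260 (67.9%) lowest there. Ctsl, a lysosomal protease, was at 293, 297, 277 and 87.0 FPKM, and Bnip3, a mitophagy receptor, was at 207, 204, 286 and 204.

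Fast and slow forms of the same protein were set side by side for 10 pairs. In MKRN1-null fat 2 the slow form made up 0% to 2.55% of its pair, and the pair with the largest slow share was Mybpc2 with Mybpc1. Tnnt1 was 0.00150% of the troponin T pair, Tnnc1 0.00217% of the troponin C pair and Casq2 0.0450% of the calsequestrin pair. Myl3 and Myl2, the slow and cardiac light chains, and Myoz2, the slow myozenin, were listed at 0 beside Myl1 at 9556, Mylpf at 8795 and Myoz1 at 1336 FPKM. Atp2a2, the calcium pump of slow fibres and of most other cells, was 0.439% of the pump pair in MKRN1-null fat 2 but 83.1% to 99.8% in the other fat libraries, where it was at 37.0 to 46.2 FPKM.

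**Figure D2:**
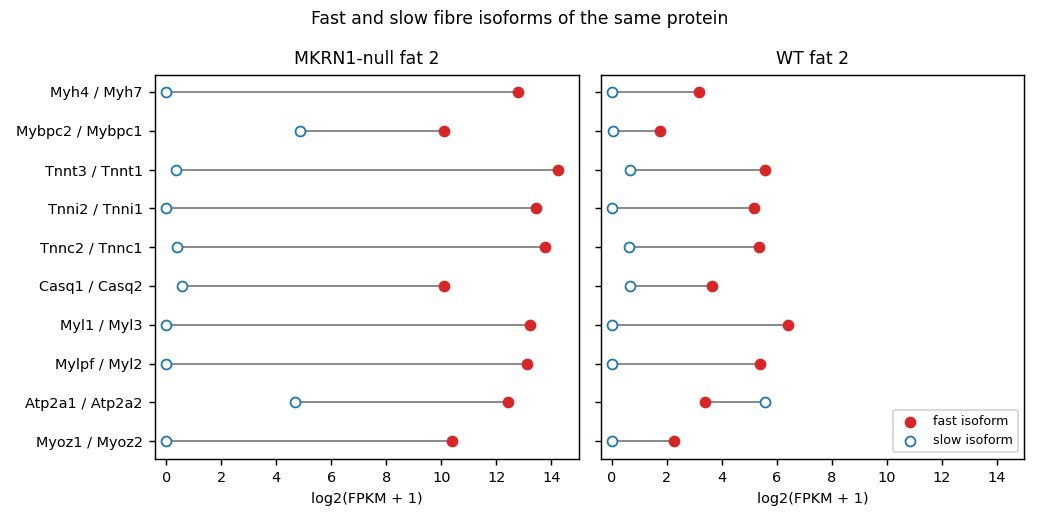
Fast (filled red) and slow (open blue) isoforms of 10 proteins in MKRN1-null fat 2 and in WT fat 2, on a log2(FPKM + 1) scale. The fast form was the higher in all 10 pairs in MKRN1-null fat 2 and in 9 of 10 in WT fat 2, where Atp2a2 at 46.2 FPKM exceeded Atp2a1 at 9.36 FPKM.

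Within the heavy chains, Myh4 made up 98.5% of the summed FPKM of Myh4, Myh1, Myh2 and Myh7 in MKRN1-null fat 2, Myh1 0.773% and Myh2 0.720%. In WT fat 2 the shares were 96.1%, 2.25% and 1.62%, and in WT fat 1 69.6%, 11.9% and 18.5%. The shares in WT fat 1 and MKRN1-null fat 1 rested on sums of only 0.384 and 0.178 FPKM, against 8.37 in WT fat 2 and 7105 in MKRN1-null fat 2. Reads of these genes are hard to assign where their sequences are alike. Of the 100-base windows of the Myh1 transcript 2.22% also stood in Myh4, as did 1.19% for Myh2 and 0 for Myh7, so that a part of the low Myh1 and Myh2 values may be shared reads, which was not tested. The heavy chain genes stand side by side on chromosome 11 (mm10), with Myh2 from 67171027 to 67197517, Myh1 from 67200114 to 67224575 and Myh4 from 67237812 to 67260447, all on the plus strand. Myhas, the antisense transcript between Myh1 and Myh4, was at 0, 0.194, 0 and 22.5 FPKM. Downstream of Myh4 lie the perinatal Myh8, at 71.9 FPKM in MKRN1-null fat 2, and then Myh13, at 0.419.

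Transcripts of a gene did not rise alike in MKRN1-null fat 2. Pvalb is transcribed from an upstream and a downstream start. The transcript of the upstream start was at 5.20, 30.04, 0 and 8779 FPKM, and that of the downstream start at 2.51, 4.14, 7.06 and 44.1. Both were highest in MKRN1-null fat 2, the downstream one by far less. The first exon of the downstream start held 54.4%, 18.6%, 100% and 0.784% of the coverage of both first exons. All Pvalb signal of MKRN1-null fat 1 therefore lay on the downstream start, whose printed promoter held none of the motifs searched.

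**Figure D3:**
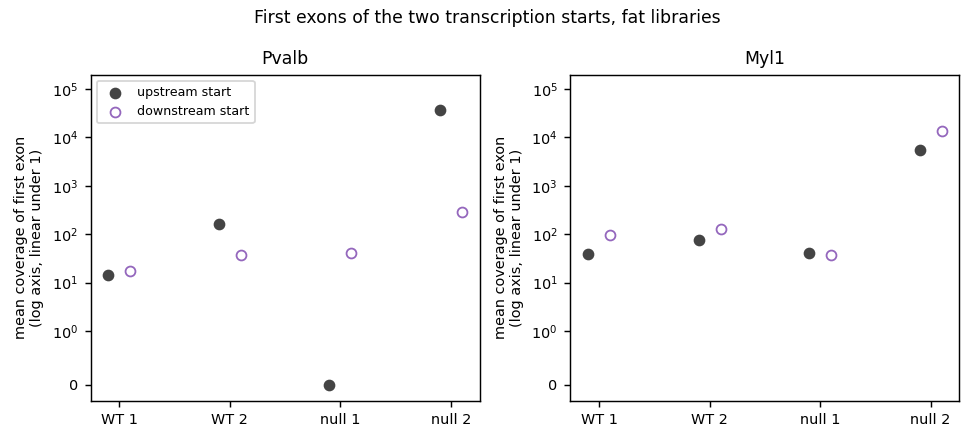
Mean coverage of the first exon of the upstream (filled) and downstream (open) start of Pvalb and Myl1 in the 4 fat libraries, on a log axis that is linear under 1. The upstream first exon of Pvalb ran from 0 in MKRN1-null fat 1 to 36817 in MKRN1-null fat 2, whereas the downstream one ran from 17.3 to 291. Both first exons of Myl1 were highest in MKRN1-null fat 2, at 5604 and 13646.

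Tpm2 was divided more sharply. The Tpm2 transcript NM_009416 was at 1.32, 4.71, 0.845 and 1545 FPKM, while NM_001277876 was at 6.67, 8.88, 9.99 and 13.6, and was the main form in WT fat 1, WT fat 2 and MKRN1-null fat 1. For Myl1, the downstream start (NM_001113387) was at 16.1, 55.7, 3.45 and 7348, and the upstream start (NM_021285) at 32.1, 27.5, 46.2 and 2208. Both forms of Myl1 were thus highest in MKRN1-null fat 2. By first exon coverage the downstream start held 72.1%, 62.9%, 47.9% and 70.9%, where by FPKM it held 33.3%, 67.0%, 6.93% and 76.9% of the gene. The measures differ for WT fat 1 and MKRN1-null fat 1, so which form made up the Myl1 level of those libraries is not settled. For Tnnt3, with 15 annotated transcripts, NM_001347550 held 72.8% of the FPKM in MKRN1-null fat 2 and 77.2% and 82.7% in WT fat, and was listed at 0 in MKRN1-null fat 1. Ldb3 was mostly the short transcript NM_001039075 in MKRN1-null fat 2, at 475 of 589 FPKM, which was at 0.152, 0.594 and 0 in the other fat libraries. Mb was read from its pair of downstream starts at 53.4 and 47.0 FPKM, with 2.34 on the upstream one. Nearly all of Ttn in MKRN1-null fat 2 was on the long transcript NM_011652, at 37.9 FPKM.

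Levels of the longest transcripts depend on how evenly they were read. In MKRN1-null fat 2 the exons of Ttn, split into 3 equal parts from 5′ to 3′, had unequal coverage. The last part had 44.8 times the coverage of the first such part, with 10 of its 313 exons at 0. The ratio was 19.3 for Neb, 5.94 for Ryr1 and 2.68 for Myh4. Over 284 long transcripts the median ratio of the last to the first part was 2.40, 2.97, 3.59 and 2.55 in the 4 fat libraries, so that MKRN1-null fat 2 was not the most uneven. Neb and Ryr1 rose through the 3 parts, whereas the middle part of Ttn was below the first, at coverages of 12.2, 4.31 and 548. FPKM of Ttn, Neb and Ryr1 averages over this uneven coverage and understates the level of their 3′ ends.

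The other fat libraries held the same genes at far lower levels and not alike. WT fat 2 exceeded WT fat 1 for 37 of the 41 genes, against 60.0% of all genes, with Actn2, Tnni1, Jph1 and Fbxo32 as the exceptions. MKRN1-null fat 1 was below both WT libraries for 28 genes (40.2% of all genes) and above both for 3, Tnnt1, Tnni1 and Fbxo32 (30.9%), and lay between them or level with either for 10. In that library 11 of the genes were listed at 0, among them Ckm, Myh4, Actn3 and Myoz1. Some other lists moved the other way there, with all 8 nerve, 12 of 15 adipocyte and 6 of 8 smooth muscle markers above both WT libraries. The nerve markers summed to 224 FPKM against 139 and 132, and the adipocyte markers to 63206 against 47408 and 50915. All 5 endothelial and 8 of 9 brown fat markers lay below both WT libraries. The part of tissue make-up in these differences was not tested.

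To compare libraries over genes of different level, the FPKM was expressed in parts per 1000000 (ppm) of the FPKM in MKRN1-null fat 2, for the 16 genes at 1000 FPKM or more there. In WT fat 2 the median was 2852 ppm, with quartiles of 2428 and 4071. In WT fat 1 it was 236, with a wide range from 38.2 (Myh4) to 9763 (Casq1). In MKRN1-null fat 1 it was 56.8, from 0 to 6945 (Tpm2). Casq1, Myl1 and Tpm2 were high in every fat library on this scale, and for Tpm2 the main form in the other 3 was not that of MKRN1-null fat 2.

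In the livers the same genes stood close to a common proportion. The median was 105 and 120 ppm in WT liver and 138 and 133 in MKRN1-null liver. Apart from Tpm2, at 5032 to 6378 ppm, the 15 other genes lay between 81.1 and 184 in WT liver 1 and between 97.0 and 235 in MKRN1-null liver 1. Their ranges were 74.97 to 413 in WT liver 2 and 53.3 to 386 in MKRN1-null liver 2, where Casq1 was the highest. The 5 genes Myh7, Mybpc1, Tnni1, Sln and Smpx were listed at 0 in all 4 livers. Pvalb of the livers was on the upstream start, as in MKRN1-null fat 2, at 0.955 to 1.48 FPKM against 0.0410 to 0.130 for the downstream one.

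**Figure D4:**
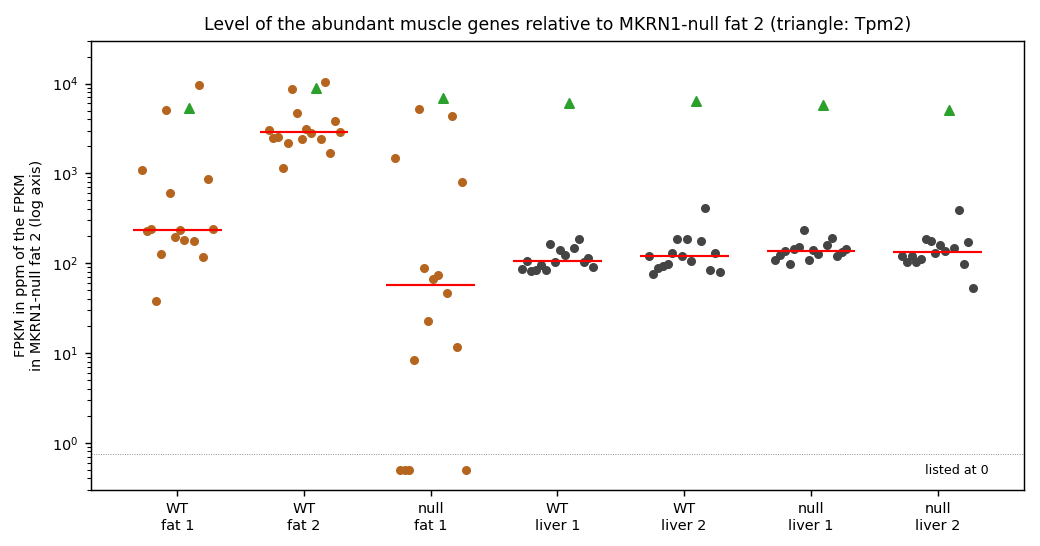
FPKM of the 16 muscle genes at 1000 FPKM or more in MKRN1-null fat 2, in ppm of the value there, in the other 7 libraries (log axis). Each point is a gene, the triangle is Tpm2 and the red bar the median. Apart from Tpm2, points of the livers lie close together, with medians of 105 to 138 ppm. Most points of WT fat 2 also lie near their median of 2852, with quartiles of 2428 and 4071. Those of WT fat 1 and MKRN1-null fat 1 spread widely.

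Some markers of the other tissue were present at low proportions in both directions. Adipoq was at 51.4 to 78.0 ppm of its WT fat mean in the 4 livers, the adipocyte hormone Lep at 29.5 to 76.2 and Retn, the hormone resistin, at 32.7 to 72.7. Most other adipocyte markers were higher in the livers, with Fabp4 at 460 to 1699 ppm, Lpl at 722 to 3047, Cfd at 4398 to 18810 and Car3 at 249930 to 336910. Adipoq, Lep and Retn therefore do not stand for the whole list. In fat, the liver secretory genes Apoa1, Ttr and Fgb were at 336, 326 and 311 ppm of their liver mean in MKRN1-null fat 2, against 0 to 21.8 in the other fat libraries. Alb was at 70.9, 116, 229 and 423 ppm. The other 2 of the 6 hepatocyte genes did not have this order. Serpina1a, an antitrypsin, was lowest in MKRN1-null fat 2, at 1036, 825, 693 and 683 ppm, and Cyp2e1, a cytochrome P450 that fat also makes, was highest in MKRN1-null fat 1, at 8450, 15231, 94641 and 58293. Fabp1, the liver fatty acid binding protein, was at 8552 to 11281 FPKM in the livers and 4.01 in MKRN1-null fat 2, and was listed at 0 in the other fat libraries. Whether the muscle values in liver and these marker values share a source was not tested.

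In liver, 10 of the 41 genes passed the filter of 1 FPKM in at least 2 of the 4 libraries. In a limma fit of log2(FPKM + 1) to the 4 livers, with Benjamini-Hochberg adjusted p-values over 10822 genes, 0 of the 10 were called between MKRN1-null and WT liver, where 19.5% of all tested genes were. A single one, Ckm, had an unadjusted p under 0.05. It was at 1.19 and 1.29 FPKM in WT liver and 1.998 and 1.78 in MKRN1-null liver. Its log2 difference was 0.37 ± 0.10 (SE, n = 2 per group, limma adjusted p = 0.0657). With median-of-ratios scaling it was 0.53 and passed (limma adjusted p = 0.0428), and over all alternatives its adjusted p ran from 0.0428 to 0.300.

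The other 9 tested genes were not called. Myl1 was at 0.804 and 1.26 FPKM in WT liver and 1.44 and 1.75 in MKRN1-null liver, a log2 difference of 0.36 ± 0.15 (SE, limma adjusted p = 0.150). Ckm and Myl1 have no stable order, because Myl1 had the larger difference of the pair with a pseudocount of 0.1 (0.61 against 0.57), with TPM (0.41 against 0.40) and without WT liver 2 (0.52 against 0.40). Tpm2 was at 9.48 and 9.95 in WT liver and 9.02 and 7.85 in MKRN1-null liver, a difference of −0.19 ± 0.10 (SE, limma adjusted p = 0.233), which turned to 0.05 with median-of-ratios scaling. The differences of Acta1, Mylpf, Pvalb, Tnnc2, Tnni2, Tnnt1 and Tnnt3 lay between −0.10 and 0.18. The median over the 10 genes was 0.12, where the median of all genes tested in liver was −0.17. Both null livers were above both WT livers for 10 of the 41 genes, Ckm, Myh4, Mybpc2, Myl1, Tnnc2, Neb, Pvalb, Jph1, Klhl41 and Fbxo32, where 9.85% of all genes were, and below for 4, Tpm2, Casq2, Ldb3 and Trdn, where 52.8% were. Jph1, at 0.127 and 0.103 FPKM in WT liver and 0.331 and 0.402 in MKRN1-null liver, did not pass the filter, and was called when no filter was used (log2 difference 0.29, limma adjusted p = 0.0391).

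In fat, 19 of the 41 genes passed the filter, and because a gene of this set could reach it through MKRN1-null fat 2 and 1 further library, their values are no evidence about the 41. The fitted log2 differences of the null from the WT group ran from 1.57 (Jph1) to 4.63 (Myh4), with an SE of 1.12 to 4.61. By limma 0 of the 19 were called, as were 0% of the 12164 tested genes, and 0 of the 19 had an unadjusted p under 0.05, against 6.45% of all genes. The differences turned on single libraries, shown here for Ckm and Fbxo32, the ends of the range without MKRN1-null fat 2. Their log2 differences were −3.73 and 0.16 without MKRN1-null fat 2, and 10.1 and 3.73 without MKRN1-null fat 1. Without WT fat 2 they were 4.74 and 1.92, and without WT fat 1 they were 1.65 and 1.98. With the replicate number as a block all 19 were called, as were 421 of all 12164 tested genes. Taken alone, MKRN1-null fat 1 lay below the WT mean of log2(FPKM + 1) for 17 of the 19, from a difference of −3.73 for Ckm to 0.16 for Fbxo32.

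The lists of other muscle genes, also chosen with earlier results of these data known, describe the reach of the signal in MKRN1-null fat 2. For comparison, 20.2% of all genes above 0 in any fat library were highest there and 3.58% by at least 10 times. Of 28 further sarcomere and cytoskeleton genes, 26 were highest in that library, 20 of them by at least 10 times. Tpm1, the alpha tropomyosin, was at 56.1, 93.9, 49.1 and 12446 FPKM and Des, the intermediate filament desmin, at 8.49, 9.64, 7.09 and 873. Of 19 further genes of excitation and calcium release all were highest there and 17 by at least 10 times, led by Tmem38a, a potassium channel of the reticulum, at 1.73, 2.99, 2.05 and 398. Of 20 genes of muscle energy supply 19 were highest and 12 by at least 10 times. Pygm, the glycogen phosphorylase of muscle, was at 1.996, 6.05, 1.05 and 2523, and Eno3, the muscle enolase, at 4.51, 10.96, 5.01 and 2782. Aldoa, an aldolase that fat also makes, was at 1277, 1134, 1228 and 10734. Of 11 genes of the dystrophin complex and sarcolemma 7 were highest and 4 by at least 10 times, with Itga7, an integrin, lower there at 146, 136, 109 and 44.2.

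Genes of muscle identity and of the nerve contact were present at lower levels. All 16 myogenic factors and satellite cell genes were highest in MKRN1-null fat 2, 9 by at least 10 times. The shares of all genes above 0 in any fat library were 20.2% and 3.58%. Myf6, the myogenic factor of mature fibres, was at 0, 0.140, 0 and 64.3 FPKM. Among genes chosen after their values were seen, Myod1, the factor of myoblasts and fast fibres, was at 6.96 and listed at 0 in the other fat libraries. Pax7, which marks satellite cells, was at 0.198 there and Myog, which marks differentiating cells, at 0.363. Of 12 genes of the neuromuscular junction 10 were highest, with Rapsn, which clusters the acetylcholine receptors, at 0.333, 0.354, 0.424 and 10.6. Of 6 embryonic muscle genes 3 were highest. Myh8, the perinatal heavy chain, was at 0.00357, 0.104, 0.00901 and 71.9, above Myh1 and Myh2, while Myh3, the embryonic one, was at 0.0724. Of the 100-base windows of the Myh8 transcript 1.44% also stood in Myh4, so that a part of the Myh8 value may be shared reads, which was not tested.

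The slow, cardiac and smooth muscle genes were highest in MKRN1-null fat 2 at shares near that of all genes. Of all genes above 0 in any fat library, 20.2% were highest and 56.8% lowest in that library. Of 6 slow fibre genes among the 41, Mybpc1 was the one at least 10 times the next library. Of 8 further slow fibre genes 2 were highest there, at low levels, Csrp3 at 0.358 FPKM and Ankrd2 at 0.256, both Z-disc and stretch proteins. Ankrd2 was at 0.0199 in WT fat 1 and listed at 0 in the other two. Csrp3 was listed at 0 in the other fat libraries and was at 25.05 to 35.4 in the livers. Tpm3, the slow tropomyosin that other cells also make, was lowest there, at 106, 115, 105 and 42.9. Of 10 cardiac genes 2 were highest, with Ryr2, the cardiac release channel, at 0.889, 0.671, 0.255 and 0.0539. Of 8 smooth muscle genes 1 was highest and 5 were lowest, with Acta2, the smooth muscle actin, at 68.9, 56.9, 88.0 and 34.9.

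**Figure D5:**
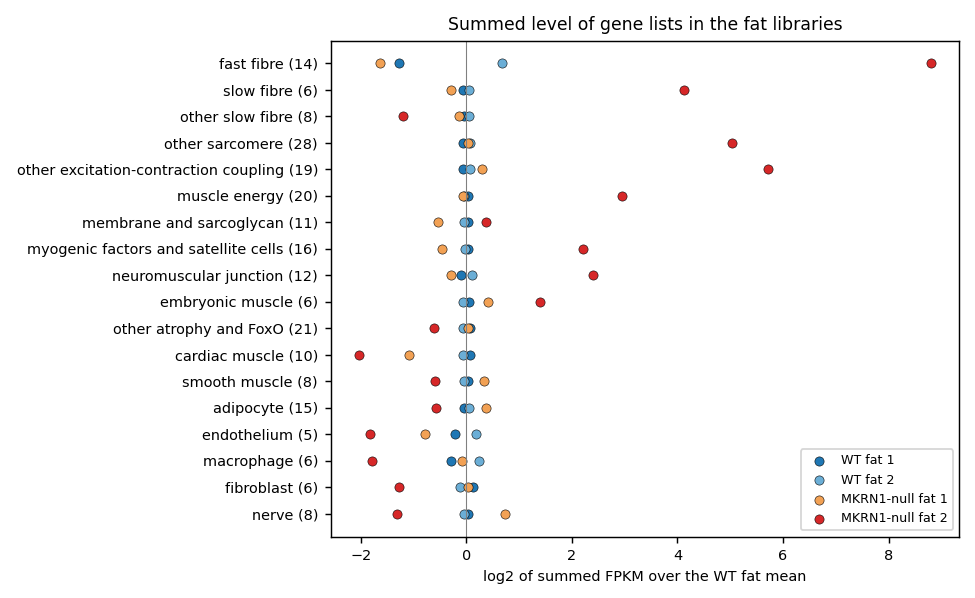
Summed FPKM of gene lists in the 4 fat libraries, as log2 over the mean of the WT fat libraries. The number of genes is in brackets. Of the lists plotted, which leave out the 7 role groups of the 41 genes, the fast fibre list stood furthest above the WT mean in MKRN1-null fat 2. The adipocyte, endothelium, macrophage, fibroblast, nerve and smooth muscle lists stood below it. So did the cardiac muscle, other slow fibre, and other atrophy and FoxO lists.

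Most genes had their lowest FPKM in the library with the muscle signal, 67.9% of the genes tested in fat and 56.8% of all genes above 0 in any fat library, and the markers of other cells of fat are read against that. Of 15 adipocyte markers 12 were lowest in MKRN1-null fat 2, close to the share of all tested genes, and their sum was 47408, 50915, 63206 and 32916 FPKM. With the 41 muscle genes left out of the scaling the sum was 43359 there, against 47421 to 63220. Other muscle genes stayed in that scaling. The further sarcomere list summed to 15807 FPKM there, against 460 to 508 in the other fat libraries, and the muscle energy list to 27258, against 3367 to 3608. The rescaling is therefore partial, and the adipocyte sum with all muscle genes left out was not tested. Fabp4, the fatty acid binding protein of fat, was at 25608, 30064, 30971 and 12745, whereas Cfd, the secreted protease adipsin, was at 1231, 1271, 5077 and 5483. All 5 endothelial, all 6 macrophage and all 6 fibroblast markers were lowest there, as were 7 of 8 nerve markers. Both null libraries lay below both WT libraries for 5 endothelial, 4 macrophage, 1 fibroblast and 0 nerve markers. Of all genes above 0 in any fat library, 31.8% had that order. The median difference of MKRN1-null fat 2 from the WT mean of log2(FPKM + 1) was −0.79 for the adipocyte, −1.69 for the endothelial, −1.54 for the macrophage, −1.24 for the fibroblast and −0.45 for the nerve markers, where it was −0.38 over all genes tested in fat. Of 9 skin epithelium markers 1 was highest, and the basal keratins Krt5 and Krt14 were listed at 0 in all fat libraries. Of 9 brown fat genes 4 were highest and 4 lowest there, against 20.2% and 56.8% of all genes above 0 in any fat library. Both null libraries lay below both WT libraries for 5 of the 9, against 31.8%. Ucp1, the uncoupling protein, was at 0.675, 0.512, 0.0539 and 32.6 and Cidea, a lipid droplet protein, at 11.95, 16.7, 10.4 and 33.2. Kcnk3, a potassium channel, was lowest in MKRN1-null fat 2, at 28.3, 27.5, 17.6 and 8.86, as was Otop1, a proton channel, at 12.03, 11.8, 6.63 and 4.79.

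Outside the lists, the 10 genes with the largest ratio of MKRN1-null fat 2 to the next fat library were Ky, Abra, Mylk4, Myo18b, Rbfox1, Nmrk2, Nctc1, Lrrc2, Klhl31 and Wnt4, with ratios from 581 to 2061. Several of them are known from striated muscle, such as Abra, which couples actin to gene activity, and Myo18b, an unconventional myosin of the sarcomere. Mylk4, a myosin light chain kinase, was the most abundant, at 0.0110, 0.252, 0 and 330 FPKM. A further 16 genes at 1 FPKM or more in MKRN1-null fat 2 were listed at 0 in the other fat libraries. They included the host transcripts entered as Mir133a-1, at 12.6 FPKM, Mir133a-2, at 5.40, and Mir1b, at 1.27, microRNA genes of striated muscle whose short mature forms poly(A) libraries do not measure.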

How the data were processed

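Poly(A) RNA of 8 libraries, 2 per tissue and genotype, was analysed. The authors deposited 1 table per library, per the labels and file headers from StringTie 1.3.3b (mm10) after HISAT2 and SAMtools, which holds coverage, FPKM and TPM for the same 36780 annotated transcripts. The HISAT2 version is not given in the sources used here, and the study's methods name other programs for its own tests. The deposited FPKM is scaled to the depth of each library and is no count, so no count model was used. As a library's FPKM is relative, a signal that takes a large share lowers the values of other genes.

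Transcript FPKM was added up by gene (24532 gene IDs, 24462 with a symbol in RefSeq). The pseudocount was 1, and testing required an FPKM of 1 or more in 2 or more of the 4 libraries of a tissue. Each tissue was fitted alone by limma 3.58.1 in R 4.3.3 (eBayes with a variance trend), with p adjusted over all tested genes by the Benjamini-Hochberg method at a threshold of 0.05. The test was tried on simulated data first. Python 3.11.15 was used with pandas 2.3.3, matplotlib 3.10.9 and numpy 2.4.6. Depth is coverage divided by FPKM and limits the precision of scarce transcripts. With 2 replicates, a p-value measures only the spread between these samples.

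The 41 genes and the other lists were chosen with earlier results of these data known. All 41 are given. From each other list up to 5 genes with the highest FPKM in any fat library could be named, with the isoform pairs, Mkrn1, and up to 10 genes outside the lists with the largest ratio of MKRN1-null fat 2 to the next fat library, leaving out provisional names. Genes listed at 0 elsewhere, hepatocyte genes, Lep, Retn, Krt5, Krt14, Myh13, Myhas and single myogenic factors were named after their values were seen. Promoters came from RefSeq on GRCm38.p6, and shared windows of 100 bases from GENCODE transcripts. Alternatives were another pseudocount (0.1), no filter or a filter of 5, median-of-ratios scaling, TPM, scaling without the 41 genes, no variance trend, the replicate number as a block, and leaving out each library.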

Additional observations from a re-analysis of the deposited data

How the results depend on the processing

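In liver, 0 of the muscle genes were called, against 1 with no filter (Jph1) and 1 with median-of-ratios scaling (Ckm), and 0 when any single library was left out. In fat, where the genes were chosen by this contrast, 0 were called, against 19 with the replicate block. Over all genes the block gave 421 calls in fat, against 0, and 1493 in liver, against 2106. The replicate numbers are shared only as numbers, and same-numbered libraries deviated together with r = 0.11 in fat and 0.0067 in liver across genes. Leaving out libraries gave 4 to 6290 calls over all genes in fat and 55 to 1880 in liver. A filter at 5 FPKM gave 1276 in liver, median-of-ratios scaling 1295 and TPM 3125.

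Small liver differences changed sign on the log2 scale. Leaving out a library moved Acta1, at 0.10, to between −0.061 (without WT liver 1) and 0.27, and Tnnt3, at 0.07, to between −0.028 (without MKRN1-null liver 2, and −0.0037 without WT liver 1) and 0.16. It moved Tnnt1, at −0.10, to between −0.30 and 0.10 (without MKRN1-null liver 2), and Tnni2, at −0.07, to between −0.21 and 0.063 (without WT liver 2). Median-of-ratios scaling turned Tnni2 to 0.095 and Tpm2 from −0.19 to 0.051, and moved the median of all liver genes from −0.17 to 0.05. The cause was not tested. A group left with 1 library was assumed to vary like the other group. Scarce genes, such as Myh7 and Tnni1, rest on too few aligned bases to be ordered between libraries, and the muscle signal has no replicate.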
